A study of Mus musculus with 8 samples.

Results

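The Hox genes of the 4 clusters were examined in a map of H3K27ac, a histone acetyl mark that is found at active promoters and enhancers, in primary mouse myotubes with and without Nrip1. The members were 38 protein-coding Hox genes, of 21911 protein-coding symbols in the annotation, with 10 in the Hoxa cluster on chromosome 6, 10 in Hoxb on chromosome 11, 9 in Hoxc on chromosome 15 and 9 in Hoxd on chromosome 2. The rule lists them by name and uses no measured value, but the gene group was picked with earlier results of these data known. A differential region was taken as theirs when its centre lay nearest to a transcript start of a member among all protein-coding genes, or within 100 kb of such a start. By this rule 10 of 11180 differential regions belonged to the Hox clusters, 7 decreased and 3 increased in the KO.

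Nrip1 encodes RIP140, a coregulator that nuclear receptors recruit and that acts mainly as a corepressor. The KO cells came from mice homozygous for a loxP-flanked Nrip1 allele (Nrip1 fl/fl, C57BL/6J), which had been crossed with C57BL/6JN mice that express Cre recombinase from the muscle creatine kinase promoter, active in heart and skeletal muscle. Per the methods the controls, named WT in the design text, were Cre-negative littermates. Satellite cells of the gastrocnemius, the stem cells of muscle, were grown and differentiated for 4 days into myotubes, the fused multinucleate muscle cells, and CUT&RUN, in which an antibody directs a nuclease to marked chromatin, gave 8 libraries in 4 groups of 2: Nrip1KO H3K27Ac, Ctrl H3K27Ac, Nrip1KO IgG and Ctrl IgG. Nuclei were pooled before being divided between the antibodies, and whether the 2 replicates came from separate mice is not stated. Per the methods, mice were 8 to 16 weeks old in the mouse studies as a whole. No separate age is given for the donors of these cells. The values analysed were 2 lists of regions, 7263 decreased and 3917 increased, that the authors had called at a difference of 2-fold or more, and these lists hold positions without a value per library. The depth of each library, the spread between replicates, the IgG background and the size of each change are therefore unknown here, a region that did not change cannot be told apart from one without the mark, and the loss of Nrip1 RNA could not be checked from these lists.

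Hox genes encode homeodomain transcription factors that give cells their position along the body axis and the limb. They lie in clusters in the order in which they are used, with the anterior genes at one end and the posterior genes, up to group 13, at the other, and much of their control comes from enhancers in the gene deserts beside the clusters. Polycomb proteins keep unused Hox genes silent and Trithorax proteins keep used ones active, so that adult limb muscle and its satellite cells retain part of the embryonic Hox pattern.

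The sequences of the regions closest to a Hox start are shown for Hoxa, Hoxc and Hoxd, with that of the widest region of the 4 clusters. Each is the central 200 bases of the region, read 5′ to 3′ on the plus strand of GRCm38 (mm10), and capitals mark a match to 1 of the 8 motifs described with the motif results. The first is from the decreased region at Hoxa6, the second from the decreased region at Hoxc12, the third from the increased region at Hoxd3 and the fourth from the wide decreased region between Hoxc9 and Hoxc8.
Hoxa6, decreased, chr6:52208785-52208984: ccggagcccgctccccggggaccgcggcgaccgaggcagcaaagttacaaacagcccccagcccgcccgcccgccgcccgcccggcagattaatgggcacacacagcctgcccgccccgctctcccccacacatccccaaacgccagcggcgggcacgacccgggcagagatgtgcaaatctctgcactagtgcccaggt
Hoxc12, decreased, chr15:102937431-102937630: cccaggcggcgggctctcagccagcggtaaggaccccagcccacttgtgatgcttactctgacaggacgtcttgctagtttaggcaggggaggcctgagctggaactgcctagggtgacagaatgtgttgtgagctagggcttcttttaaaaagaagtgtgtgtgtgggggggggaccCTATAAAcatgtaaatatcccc
Hoxd3, increased, chr2:74740163-74740362: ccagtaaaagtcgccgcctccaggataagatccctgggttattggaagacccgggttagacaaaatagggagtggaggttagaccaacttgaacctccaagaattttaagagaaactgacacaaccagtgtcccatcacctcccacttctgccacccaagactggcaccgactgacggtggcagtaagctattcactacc
Hoxc8, decreased, chr15:102986010-102986209: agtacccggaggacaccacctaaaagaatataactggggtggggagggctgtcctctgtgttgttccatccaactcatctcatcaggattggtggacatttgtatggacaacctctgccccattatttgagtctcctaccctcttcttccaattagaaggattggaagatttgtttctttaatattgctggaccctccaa
GC content was 71.0% in the Hoxa6 stretch, which holds 20 CpG dinucleotides, against 55.0% and 4 at Hoxc12, 50.5% and 5 at Hoxd3, and 45.5% and 1 at Hoxc8. The capitals in the Hoxc12 stretch are a match on the minus strand to the posterior HOX consensus, and no motif fell in the other 3 stretches.

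Differential H3K27ac lay at 6 of the 38 Hox genes when each region was given to its nearest protein-coding start. Hoxa2, Hoxa6, Hoxc8 and Hoxc12 had decreased regions alone, Hoxd3 had an increased region, and Hoxc4 had 1 of each. The other 32 members were the nearest gene of no region. Decreased regions thus belonged to 5 of 38 members, or 13.2% (exact binomial 95% interval 4.41 to 28.1%, for counting error over genes only), where 17.8% of all protein-coding genes had such a region. Increased regions belonged to 2 of 38, or 5.26% (interval 0.644 to 17.7%), where the background was 10.7%. Both shares were below the background and both intervals held it. With the wider criterion of a region centre within 100 kb of a start, 19 of 38 members (50%, interval 33.4 to 66.6%) had a decreased region, against 42.7% of all protein-coding genes, and 26 of 38 (68.4%, interval 51.3 to 82.5%) had an increased region, against 24.1%. The 26 genes shared 3 increased regions and the 19 genes shared 7 decreased ones, because neighbours in a cluster lie within the same 100 kb, so these genes are not independent counts and the interval is too narrow. Of the members, 17 had regions of both directions within 100 kb and 10, which were the whole Hoxb cluster, had none.

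**Figure D1:**
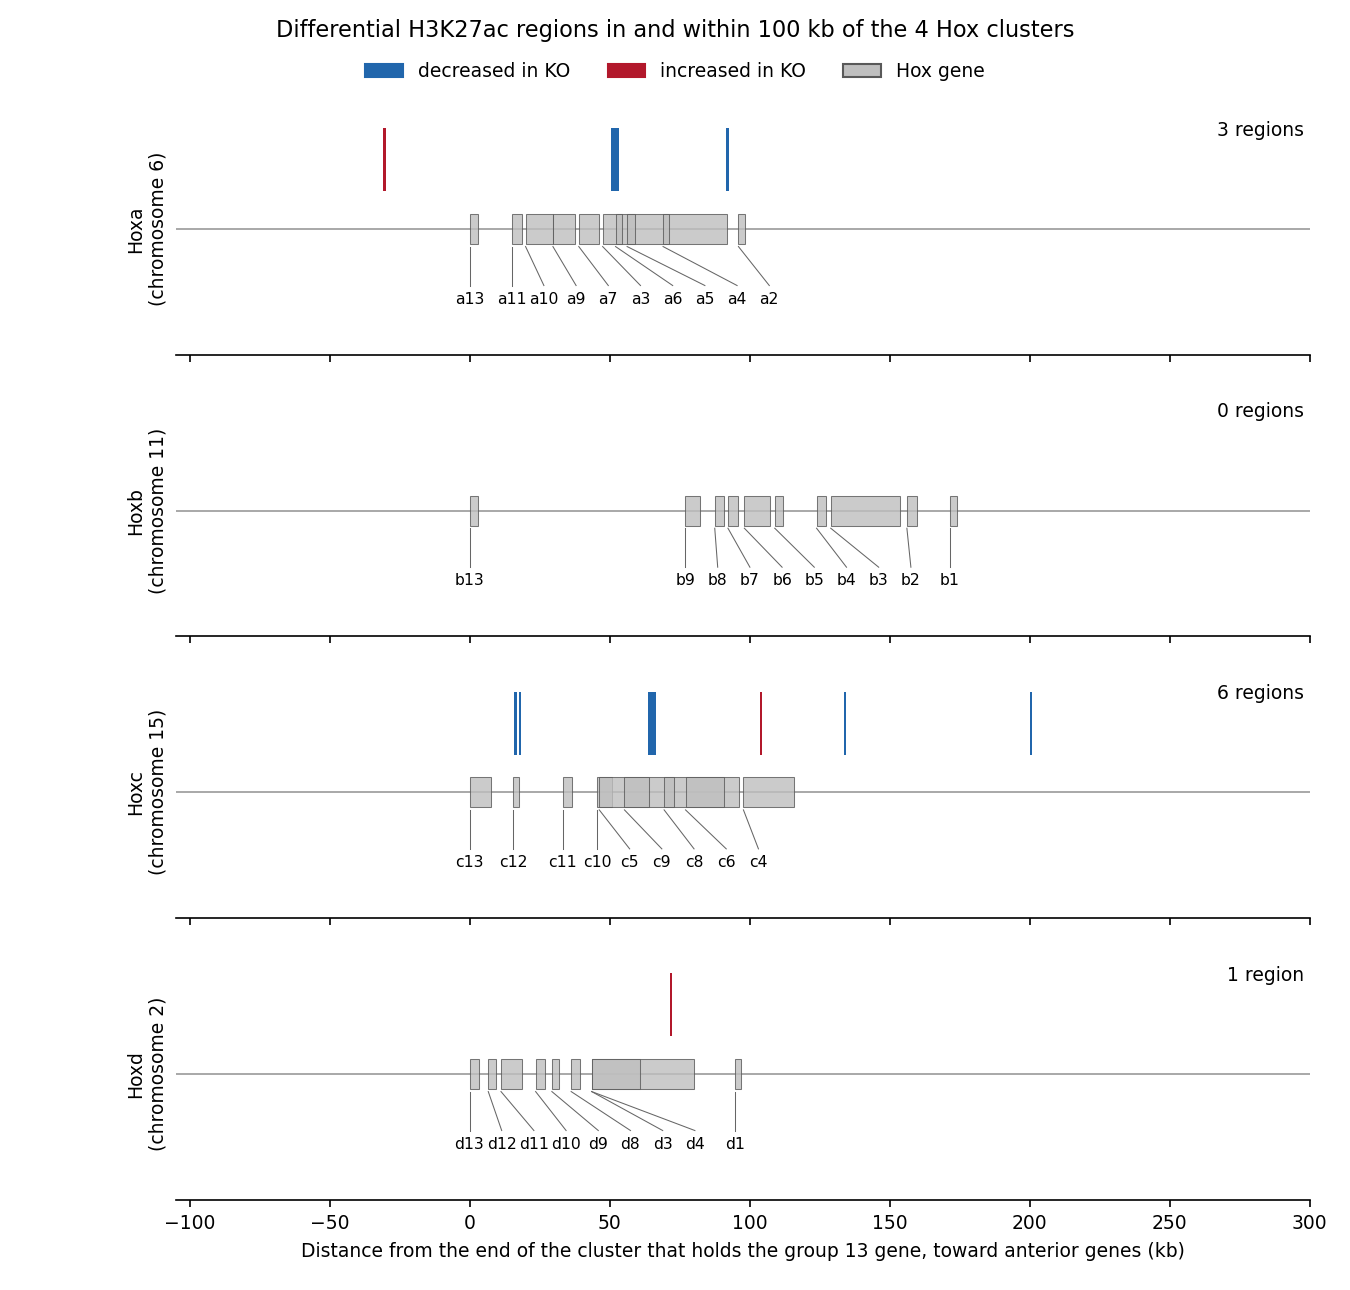
The 4 Hox clusters drawn to scale, with distance in kb along the cluster from the end with the group 13 gene (0) toward the anterior genes, Hox genes as grey boxes labelled below at their starts, and differential regions as bars above the line (blue decreased, red increased in the KO; bars under 0.9 kb are widened to be visible). Decreased regions lie at Hoxa6, Hoxa2, Hoxc12 and Hoxc8, increased ones in Hoxc4 and Hoxd3 and beyond Hoxa13, and Hoxb has 0 regions.

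In the Hoxa cluster H3K27ac was decreased at a pair of places inside the cluster. The wider one, chr6:52207480-52210289 (2810 bp), covered the promoter of Hoxa6, a central Hox gene of the trunk. Its centre lay 162 bp upstream of the Hoxa6 start at 52208722, and it was the 1 region of the 10 that held a Hox start. It took in 98 untranslated and 439 coding bases of the Hoxa6 exon, and its centre was also intronic to the long transcripts of Hoxa3 and to the non-coding Hoxaas3 and Gm28308. The authors' peak merging had joined 2 peaks to form it, and 423 decreased regions genome-wide were wider. The other, chr6:52168407-52169037 (631 bp), lay 3891 bp upstream of Hoxa2, which patterns the hindbrain and the second pharyngeal arch. It fell in a non-coding exon of Hoxaas2, held a start of that transcript 212 bp from its centre, and was assigned to Hoxaas2 when non-coding genes were allowed.

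On the posterior side of Hoxa, H3K27ac was increased at chr6:52290897-52291397, an intergenic region of 501 bp, the narrowest width in the lists. It lay 30267 bp upstream of Hoxa13, the gene of the distal limb and the hindgut, and nearer to Evx1, a homeobox gene next to the cluster, whose start was 22351 bp away. All 10 Hoxa genes had a decreased region within 100 kb, at distances from 162 bp (Hoxa6) to 51918 bp (Hoxa13), with Hoxa2 at 3891 bp, Hoxa3 at 4231 bp and Hoxa5 at 4297 bp. The increased region lay within 100 kb of 9 of them, the exception being Hoxa2 at 126316 bp. Hoxa13 was the 1 Hoxa gene closer to the increased region than to a decreased one. The limit of 100 kb ran close to Hoxa4, which was inside it at 99394 bp from the increased region, and Hoxc13, which was outside it at 104069 bp from another.

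The Hoxc cluster held the most differential regions, 6 within 100 kb, of which 5 were decreased. Neighbouring decreased regions at chr15:102937214-102937847 (634 bp) and chr15:102938678-102939582 (905 bp), separated by 830 bp, were nearest to Hoxc12, a posterior gene of the caudal axis. The centre of the first lay 773 bp inside the gene, in its intron, with 243 coding bases in the region, and that of the second lay 2373 bp from the Hoxc12 start, beyond the gene. The widest region of the 4 clusters, chr15:102984675-102987543 (2869 bp), lay between Hoxc9, of the thoracic trunk, and Hoxc8, of limb motor neurons. Its centre was 4498 bp upstream of a Hoxc8 start at 102990607 and in an intron of Hoxc5, the region overlapped 425 untranslated bases at the 3′ end of Hoxc9, and 410 decreased regions were wider.

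At the anterior end of Hoxc an increased region lay between decreased ones. H3K27ac was increased at chr15:103024783-103025562 (780 bp), in an intron of Hoxc4 and 6238 bp downstream of its start at 103018934. It was decreased at chr15:103054887-103055656 (770 bp), intergenic and 20876 bp from another Hoxc4 start, and at chr15:103121183-103121940 (758 bp), which was nearest to the DNA repair gene Smug1 (36441 bp) and 87166 bp from Hoxc4. That last region was the farthest of the 10 from a Hox start, and the next one outward in any cluster, on the posterior side of Hoxb, lay 108096 bp away. The decreased region of 770 bp was assigned to 5730585A16Rik, with a start 4035 bp away, when non-coding genes were allowed. Hoxc4 and Hoxc5 were closer to the increased region (6238 and 11357 bp) than to a decreased one (20876 and 18666 bp), and Hoxc6 lay between them at 15599 and 12148 bp. Hoxc8 to Hoxc13 were all closer to a decreased region, at 773 to 19313 bp.

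The Hoxd cluster had 1 region, increased. It was chr2:74740012-74740512 (501 bp), in an intron of Hoxd3 and 643 bp downstream of an internal Hoxd3 start at 74739619. Hoxd3 is an anterior Hox gene that patterns the cervical vertebrae. The assignment depended on which starts were used: it moved to Gm28230, a gene record that overlaps the cluster, when each gene had a single start, and to Hoxd4 with RefSeq starts. All 9 Hoxd genes lay within 100 kb of it, from 643 bp (Hoxd3) and 13188 bp (Hoxd4) to 71952 bp (Hoxd13). The closest decreased region was 167742 bp (Hoxd13) to 262412 bp (Hoxd1) away, so that every Hoxd gene was closer to an increased region and none had a decreased one within 100 kb.

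No differential region lay within 100 kb of a Hoxb gene. The closest decreased region, chr11:96085970-96086470, lay beyond the posterior end at 108096 bp from Hoxb13 and 185237 to 279532 bp from Hoxb9 to Hoxb1. The closest increased region was 777725 to 949161 bp away. The count of 0 in the Hoxb window of 371.9 kb allows up to 9.92 regions per Mb (upper bound of the exact Poisson 95% interval, for counting error only), and the rest of chromosome 11 held 5.37 per Mb, so an absence of differential regions particular to Hoxb was not detectable at these counts.

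**Figure D2:**
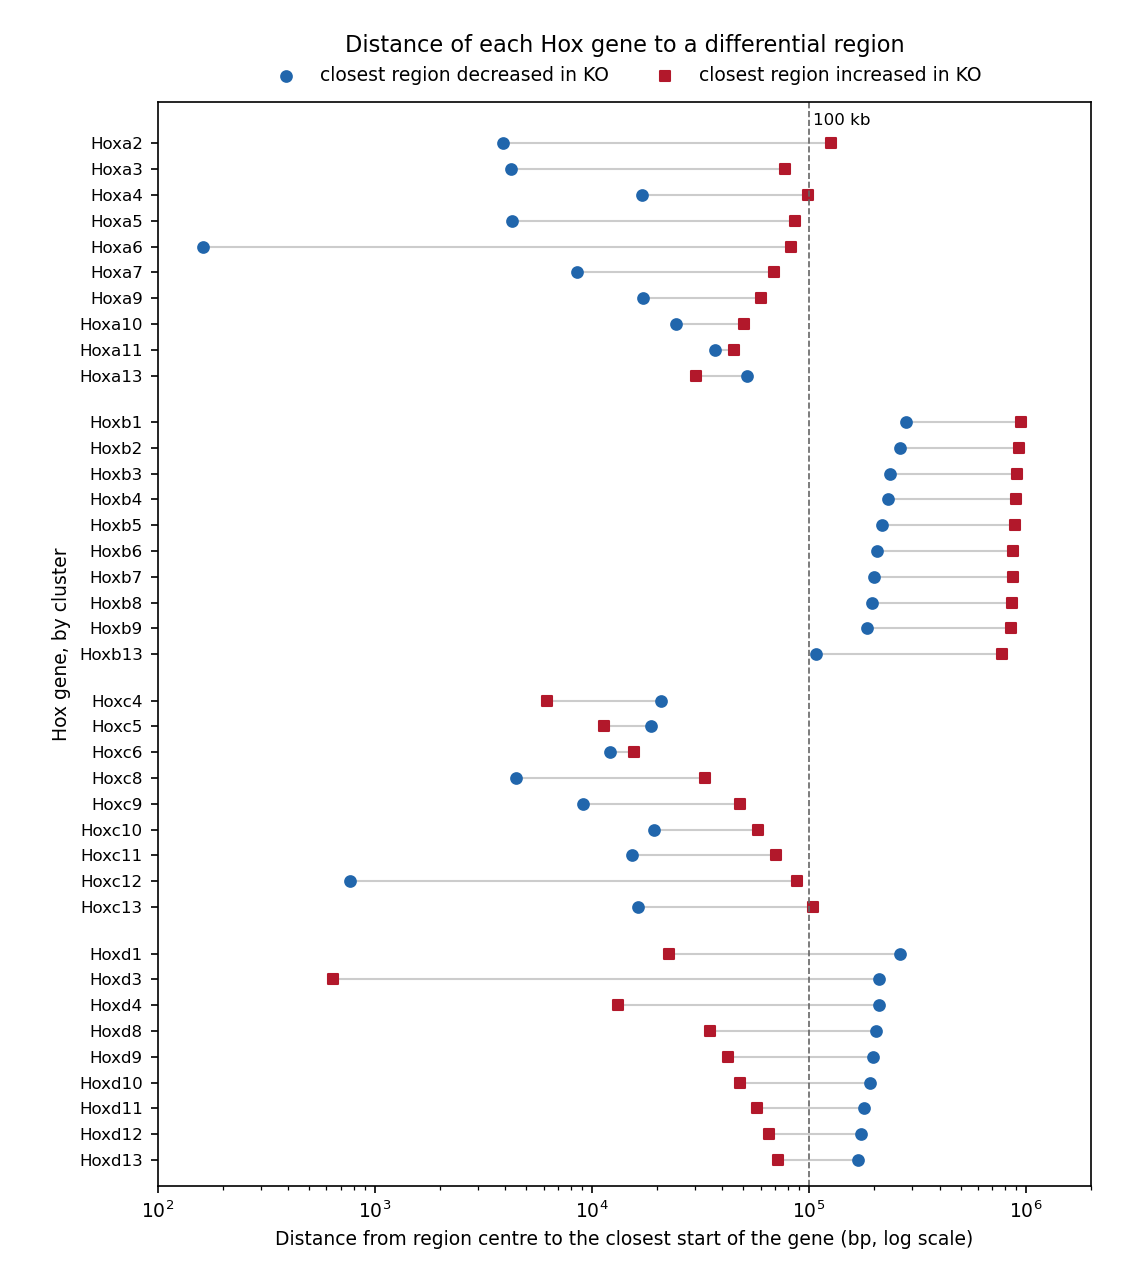
Distance in bp, on a log scale, from the closest start of each of the 38 Hox genes to the centre of the closest decreased (blue circle) and closest increased (red square) region; the dashed line marks 100 kb. Blue is closer for 26 genes and red for 12, which comprise all 9 Hoxd genes, Hoxc4, Hoxc5 and Hoxa13.

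Among all members, 26 of 38 (68.4%) were closer to a decreased and 12 to an increased region, where 62.9% of all protein-coding genes were closer to a decreased one, so the members were near the background. The median distance of the members was 80007 bp to the closest decreased and 70019 bp to the closest increased region, against 137994 and 337113 bp over all protein-coding genes, and the members of a cluster share these distances in large part. The 12 comprised 9 Hoxd genes, 2 Hoxc genes and Hoxa13. The median distance to the closest decreased region was 12850 bp for Hoxa and 15297 bp for Hoxc, but 197159 bp for Hoxd and 211686 bp for Hoxb. To the closest increased region it was 42535 bp for Hoxd, 48140 bp for Hoxc, 73552 bp for Hoxa and 881315 bp for Hoxb. Grouped by place along the cluster, the 7 anterior genes (groups 1 to 3) included 1 with a nearest decreased and 1 with a nearest increased region, the 15 central genes (groups 4 to 8) 3 and 1, and the 16 posterior genes (groups 9 to 13) 1 and 0. Hoxa6 and Hoxc12 were decreased within 1 kb of a start and Hoxd3 increased. Their paralogs Hoxb6, Hoxc6, Hoxd12, Hoxa3 and Hoxb3 had no nearest region, as was the case for 32 of the 38 members. Of all protein-coding genes, 25.4% had a nearest region of either direction. The Hoxa6 region also overlapped Hoxa3, with its centre 4231 bp from a Hoxa3 start.

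The clusters were next set beside their own chromosomes. Hoxc had 19.2 regions per Mb within 100 kb of its genes (exact Poisson 95% interval 7.03 to 41.7, for counting error only), against 4.66 per Mb on the rest of chromosome 15. Hoxa had 10.1 (2.09 to 29.6) against 3.53 on chromosome 6, and Hoxd 3.39 (0.0859 to 18.9) against 4.14 on chromosome 2. The Hoxc interval lay above the level of its chromosome, while those of Hoxa, Hoxb and Hoxd held it. Neighbouring regions are not independent and the rest of a chromosome was not matched for gene density, so the part of either in the Hoxc value was not tested. Regions covered 4.48% of the Hoxc span, 3.49% of Hoxa, 0.517% of Hoxd and 0% of Hoxb, where they covered 0.555, 0.384, 0.470 and 0.622% of the 4 chromosomes in the same order.

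The interval of the share of increased regions held the chromosome's own share in Hoxa, Hoxc and Hoxd, the clusters with regions. It was 1 of 3 in Hoxa (33.3%, exact interval 0.840 to 90.6%) against 31.3% of the other regions of chromosome 6, and 1 of 6 in Hoxc (16.7%, 0.421 to 64.1%) against 26.5% on chromosome 15. The single Hoxd region was increased (100%, 2.50 to 100%), against 24.3% on chromosome 2. Over the 4 clusters 30% of the 10 regions were increased, against 24.1% of the other 2417 regions of these chromosomes and 35.0% of all regions. No p-value is given, because the regions of 1 neighbourhood are not independent and the lists hold no replicates.

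**Figure D3:**
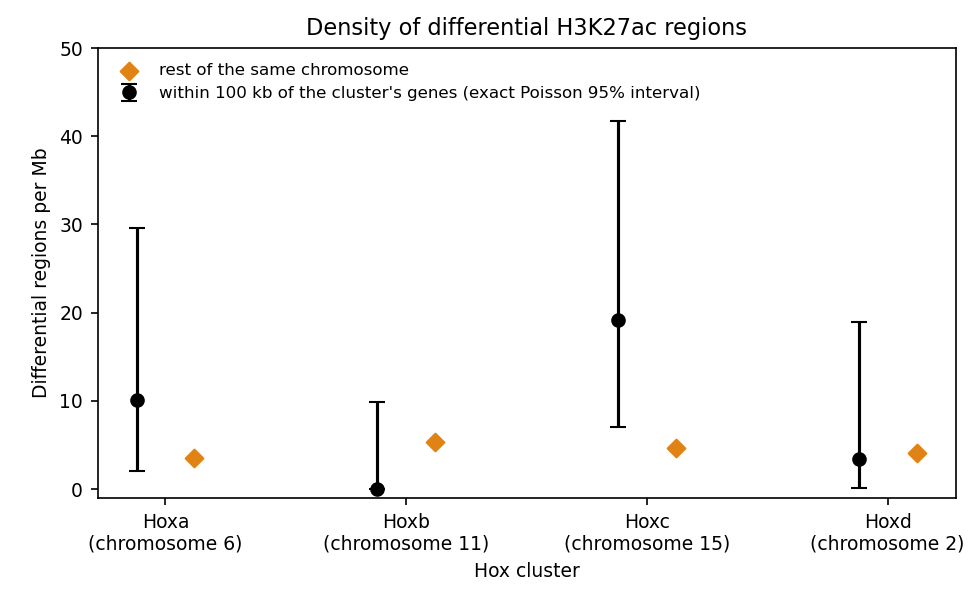
Differential regions per Mb within 100 kb of the genes of each Hox cluster (black, with the exact Poisson 95% interval for counting error) and on the rest of the same chromosome (orange, no interval drawn). The Hoxc interval, from 7.03 to 41.7, is the 1 interval that lies above the orange point.

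The surroundings of the clusters were then followed out to 1 Mb, since distal Hox enhancers lie in the flanking deserts. Hoxd was flanked by opposite directions. On its anterior side, 5 increased regions lay 275967 to 389831 bp from the cluster, all nearest to Mtx2, a mitochondrial import gene, and 1 decreased region lay far out at 931544 bp, near Nfe2l2. The first 4 of the 5, of 824, 501, 1150 and 690 bp, lay within 14.4 kb at chr2:75040698-75055103, and the fifth was chr2:75154596-75155350 (755 bp). On the posterior side 4 regions lay 167742 to 903590 bp away and all were decreased, 2 of them nearest to Lnpk and the others to Atp5g3 and Chn1. With the region in Hoxd3 this gave 6 increased and 5 decreased regions, on a chromosome where 24.3% of the other regions were increased. The 4 increased regions within 14.4 kb are neighbours and not independent counts, and no test was made. It is known that the anterior desert of Hoxd carries enhancers of the proximal limb and the posterior one those of the digits; whether these regions coincide with any of those enhancers was not tested.

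The other clusters had more decreased than increased regions around them, as had their chromosomes, where 26.5% (15, Hoxc), 16.2% (11, Hoxb) and 31.3% (6, Hoxa) of the other regions were increased. Hoxc had 10 decreased and 0 increased regions on the posterior side, at 218528 to 944195 bp, the nearest genes being Calcoco1, Sp1, Sp7, Rarg, Itgb7 and the keratins Krt18, Krt8 and Krt78. On its anterior side 6 were decreased and 0 increased, at 18419 to 550570 bp, 2 of which were those within 100 kb, so that the region inside Hoxc4 was the 1 increased region of 20. Hoxb had 11 decreased regions and 1 increased, all on the posterior side, among them chr11:95982022-95983302 (1281 bp), whose centre lay 51 bp from a start of Igf2bp1, an RNA-binding protein of fetal growth. Phospho1, a phosphatase of bone mineralization, was the nearest gene of 3 of the others. On the anterior side of Hoxb no region lay within 1 Mb. Hoxa had 7 decreased and 3 increased, with the next region beyond the cluster on the posterior side, 627 bp wide, near Hibadh at 330111 bp from the cluster, and those on the anterior side beyond 744753 bp near Nfe2l3.

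**Figure D4:**
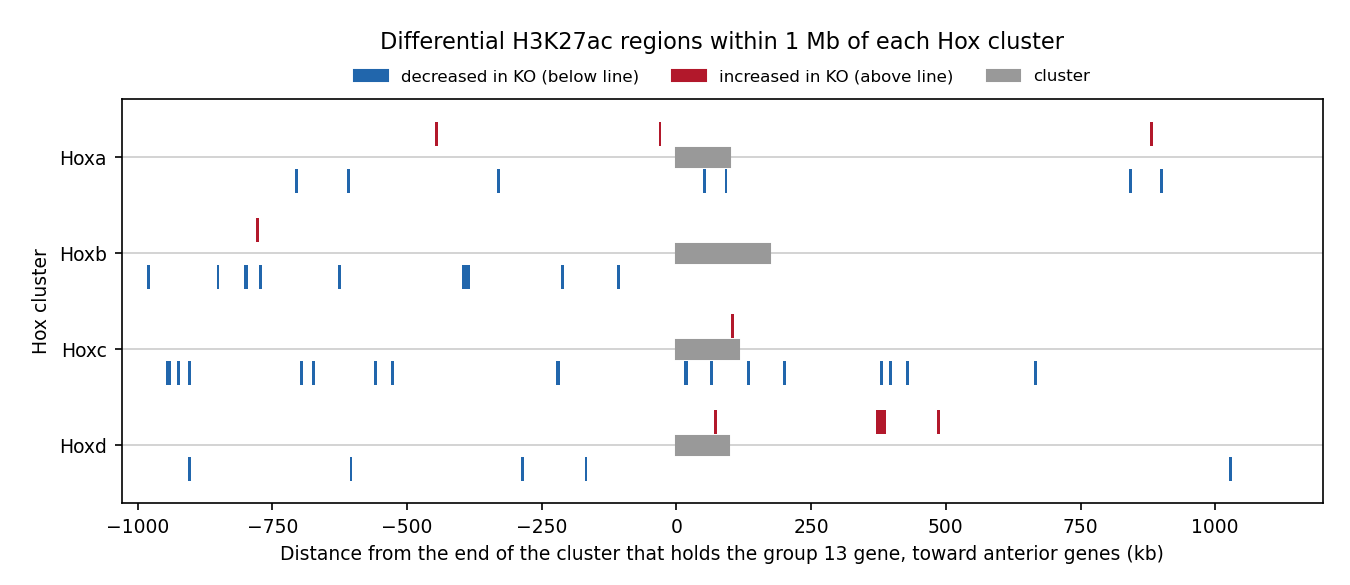
Differential regions within 1 Mb of each Hox cluster, by distance in kb from the end with the group 13 gene toward the anterior side, decreased (blue) below and increased (red) above each line, with the cluster as a grey box and regions under 5 kb widened to be visible. Increased regions lie inside and to the right of Hoxd, where 4 stand within 14.4 kb on the anterior side and another farther out, and the 4 regions to its left are decreased.

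Several regions at the Hox clusters were richer in GC and CpG than most differential regions. Among the 7 decreased ones GC content ranged from 47.7 to 60.4% with a median of 53.3%, against a median of 47.9% over all 7262 decreased regions on chromosomes, and 4 of 7 lay above the upper quartile of 51.5%. The ratio of observed to expected CpG, which is near 1 in CpG islands and low where CpG has been lost, had a median of 0.295 against 0.166, and again 4 of 7 lay above the upper quartile, 0.228. The highest ratios were 0.679 near Hoxa2, 0.621 in Hoxc12 and 0.407 at Hoxa6. Of the 3 increased regions, those beyond Hoxa13 (GC 58.3%, CpG ratio 0.682) and in Hoxd3 (55.9%, 0.590) lay above the upper quartiles of increased regions (46.9%, 0.285), and the intronic Hoxc4 region (41.9%, 0.0888) lay below both medians (43.1%, 0.189).

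The regions were not wide. The median was 770 bp for the 7 decreased ones, from 631 to 2869 bp, against 864 bp for all decreased regions, and 501 bp for the 3 increased ones against 777 bp. Only the Hoxa6 and Hoxc8 regions exceeded 1 kb. Repeats covered a median of 9.31% of the decreased and 9.18% of the increased regions, against 13.5 and 14.7% of all regions of the same direction. By position 4 of the 10 were intergenic and 3 lay with their centre within 1 kb of a Hox start.

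**Figure D5:**
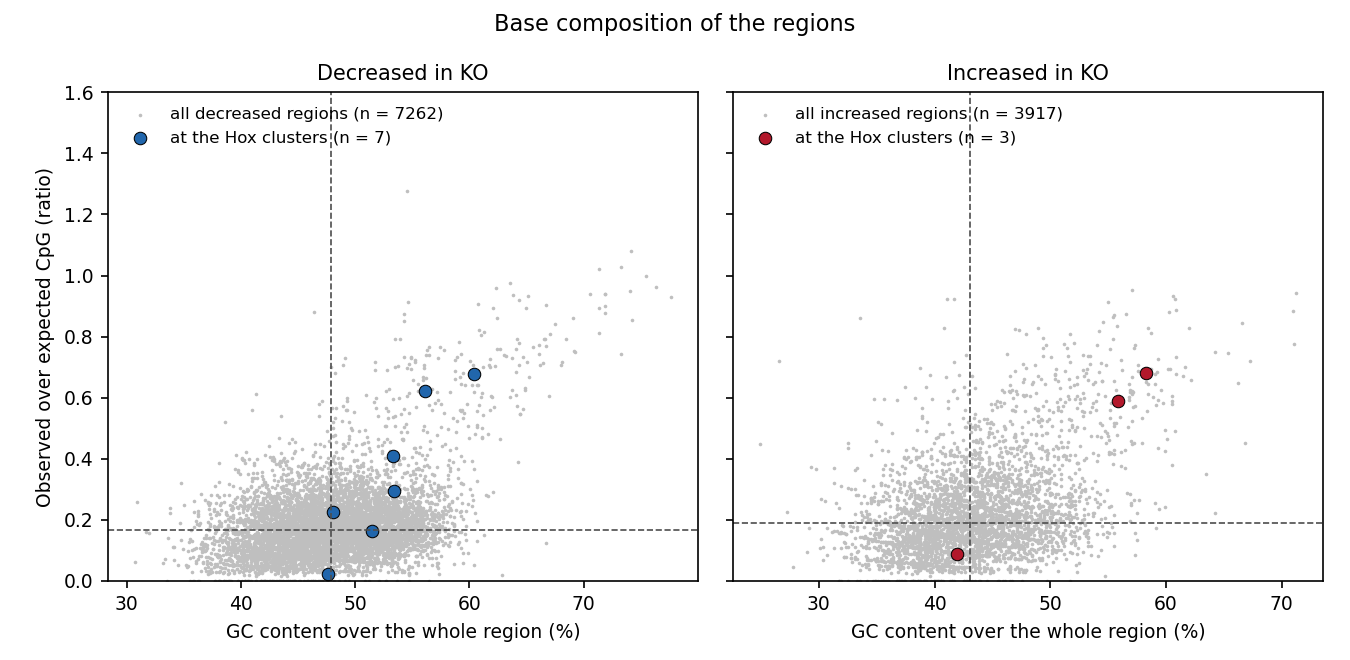
GC content in percent (x axis) against the ratio of observed to expected CpG (y axis) for each region, decreased at left and increased at right, with all regions in grey, those at the Hox clusters in colour and dashed lines at the medians of all regions. Of the coloured points, 4 of 7 and 2 of 3 lie above the upper quartile of CpG ratio.

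Consensus motifs were searched on both strands in the central 500 bp of each region, and a match is a description of the letters and not a binding site. The HOX-PBX consensus TGATTNAT, which Hox proteins bind with their cofactor Pbx, was in 1 of the 10 regions, the increased one in Hoxc4, against 7.17% of all 11179 regions. The homeodomain consensus TAATTA was in 0 of 10 against 10.9%, and the posterior HOX consensus TTTATNG in 3 of 10 against 22.3%: the decreased regions in Hoxc12 and near Smug1 and the increased one in Hoxc4. The E-box CAGCTG, which MyoD and myogenin can bind, was in 4 of 10, all decreased, against 34.8%. The TEAD consensus CATTCC was in 3 against 28.5%, the AP-1 consensus TGANTCA in 0 against 20.1%, and the CTCF core, by name, in 0 against 0.233%. The ERR consensus TCAAGGTCA, of estrogen-related receptors to which RIP140 can bind, was in 0 against 1.22%. Over whole widths, which differ between regions, it had 1 match, 891 bp from the centre of the Hoxa6 region. With 10 regions each share rests on 0 to 4 regions with a match, and no test was made.
The HOX-PBX match and the ERR match are shown in capitals on the plus strand of GRCm38, and both stretches were chosen after the matches had been seen.
Hoxc4, increased, chr15:103024857-103025056: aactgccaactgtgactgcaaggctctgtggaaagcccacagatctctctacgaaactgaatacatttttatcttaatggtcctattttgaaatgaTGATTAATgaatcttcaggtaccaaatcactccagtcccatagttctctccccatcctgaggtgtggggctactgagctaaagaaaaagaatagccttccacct
Hoxa6, decreased, chr6:52209746-52209805: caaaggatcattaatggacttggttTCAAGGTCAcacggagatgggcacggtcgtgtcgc
The Hoxc4 stretch has a GC content of 42.5% and 1 CpG, and the Hoxa6 stretch 51.7% and 4 CpG in 60 bases.

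Beyond the clusters, the genes of the Hox cofactors carried differential regions of both directions. Of 9 cofactor genes, 5 were the nearest gene of a decreased region, 4 of an increased one, 3 of both, and Pbx2, Meis2 and Meis3 of none. Meis1, which binds DNA together with Hox and Pbx proteins, had the most. Its increased region of 6104 bp, chr11:19014357-19020460, was centred 1119 bp from an internal start. The same region also covered the outermost Meis1 start, at 19018985. The 10 decreased regions, of 501 to 2549 bp, lay 88439 to 452446 bp from that outermost start. Pbx3 had 3 increased regions, 5945 to 103888 bp from an internal start, and 2 decreased ones at 144954 and 165172 bp from the same start. Pbx4 had 2 and Pknox1 had 1 decreased, and Pknox2 had 1 increased. These are counts of nearest regions, to be read against the background of 17.8% of genes with a decreased and 10.7% with an increased one.

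Of 21 listed regulators of Hox genes, 8 had a nearest decreased region, 2 an increased one and 11 none, where the shares of all protein-coding genes were 17.8 and 10.7%. The list was drawn up as Polycomb and Trithorax regulators, and not every gene on it belongs to either group. Ctcf, which belongs to neither, was 1 of the 8. The decreased set included Phc2 (4 regions), Cbx7 (2), Cbx2, Kmt2a and Kdm6b. A region of 1259 bp was decreased 149 bp from a start of Men1, a partner of the Trithorax methyltransferase Kmt2a. H3K27ac was increased at Eed and Ezh2, subunits of the Polycomb complex that methylates the same lysine: a region of 1560 bp lay 108 bp from an Eed start with 3 more at 49144 to 73201 bp, and a region of 501 bp lay 578 bp from an Ezh2 start. Eed lies on chromosome 7, where 97.7% of 996 regions were increased, and Phc2 on chromosome 4, where 7.53% of 877 were, so their directions were those of nearly all regions of these chromosomes. Ezh2 lies on chromosome 6, with 31.3% increased.

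Among 16 genes that flank the clusters, 3 had a nearest decreased region (Lnpk with 2, Hibadh and Smug1) and 2 an increased one (Mtx2 with 5 and Evx1), and 11 had none. These counts are near the 17.8 and 10.7% of all protein-coding genes.

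Marker genes of the cell types that such cultures can hold were listed in the same way, since Hox use differs between cell types. Of 10 myotube markers, 1 had a nearest region (Myh3, increased) and the defining genes Myog, Des, Ckm and Ttn had no nearest region. Within 100 kb of a start, 4 of the 10 had a decreased and 4 an increased region. Ckm had 2 increased ones there, and Ttn 1 of each direction. The shares of all protein-coding genes within 100 kb were 42.7% for decreased and 24.1% for increased regions. Of 5 satellite cell markers, 3 had decreased regions, of which Pax7 had 8 (on chromosome 4), and Myf5 had an increased one. Of 7 fibroblast markers, 5 had increased regions (Col3a1 with 3, Col1a2, Dcn, Tcf21 and Twist2) and 2 decreased ones (Col1a1 and Twist2). The increased regions lay 7931 bp from a start for Col1a2, 11778 to 295180 bp for Col3a1 and 95994 bp for Tcf21. For Twist2 and Dcn they lay 129580 and 166515 bp away. The decreased regions of Col1a1 and Twist2 lay at 19497 and 102650 bp. Dcn, Tcf21 and Myf5 lie on chromosome 10, where 69.1% of 656 regions were increased. Of 4 endothelial markers, 2 had decreased regions and 1 an increased one. All these counts of nearest regions stand beside the 17.8 and 10.7% of all protein-coding genes. The lists name differential regions alone, so the identity of the cells could not be checked from them, and the part of a change in cell types in the Hox regions was not tested.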

How the data were processed

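H3K27ac and IgG CUT&RUN libraries were made from Nrip1 KO and control myotubes (4 groups of 2). The labels and the methods name different suppliers for the H3K27ac antibody. The authors aligned paired reads to mm10 with BWA-MEM2 (2.2.1), called broad peaks with HOMER (4.11), merged them and deposited the regions that differed by 2-fold or more, 1 list per direction. How replicates and IgG entered these calls is not stated. The deposited columns used are positions, with no score, signal or p-value per library, so depth is unknown and no test between groups could be made.

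Intervals were taken as half-open and printed from base 1. Of 11180 regions, 11179 lay on chromosomes. Transcript starts came from GENCODE M21 for GRCm38.p6 (55413 genes), which may differ from the annotation used by the authors, and sequence from the RefSeq copy of that assembly. Distances run from the region centre to the nearest start of a protein-coding gene, and shares carry exact binomial or Poisson 95% intervals for counting error only. Assignment was tested on simulated regions planted at known genes. Alternatives were other starts and windows, non-coding genes, region edges, a minimum width of 1 kb, joining within 10 kb and motifs over whole widths. Windows of 500 kb and 1 Mb and RefSeq starts were added after the data had been seen.

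The members, the 8 gene lists and the motifs were chosen with earlier results of these data known. All members were accounted for. List genes were named by number of regions, up to 8 per list, except that some are not reported here by name. Python 3.11.15, pandas 2.3.3, pysam 0.24.0 and samtools 1.23.1 were used.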

Additional observations from a re-analysis of the deposited data

How the results depend on the processing

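Of 53 values recomputed under an alternative, 37 stayed close to the count or within the counting interval, and 16 moved. The counting intervals are wide: within them the increased share in Hoxd was 50% at 200 kb, 75% at 500 kb and 54.5% at 1 Mb in place of 100%, that in Hoxc was 9.09% at 500 kb and 5% at 1 Mb in place of 16.7%, and the share of members with a nearest increased region was 2.63% with 1 start per gene. Windows of 500 kb and 1 Mb, added after the data had been seen, took in 20 and 42 decreased and 9 and 11 increased regions in place of 7 and 3. Regions of at least 1 kb numbered 2 decreased and 0 increased, so the increased share fell to 0% in Hoxa and in Hoxc, and Hoxd gave no value. Counting any region within 100 kb of a member raised the shares of members to 50% for decreased and 68.4% for increased regions, against 13.2 and 5.26% by nearest start. With 1 start per gene, 1 increased region in place of 2 had a member as its nearest gene, since the region in Hoxd3 passed to Gm28230. With non-coding genes allowed, 4 decreased regions in place of 6 had a member as nearest gene. The region near Hoxa2 then passed to Hoxaas2, and the decreased region of Hoxc4 to 5730585A16Rik. Motif matches over whole widths rose to 2 regions for the homeodomain, 7 for the E-box, 1 for AP-1, 5 for TEAD and 1 for ERR, of 10, where the shares of all regions rose to 21.9, 52.7, 34.5, 47.0 and 2.88%. Whether any count rested on 1 library is unknown. No paired analysis was possible because the lists hold no value per library, and leaving out each replicate was not run for the same reason.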

Other observations

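Homeobox and T-box genes that, like the Hox genes, set limb identity or mark limb muscle precursors had regions at 9 of 22, with 5 genes decreased and 4 increased, where 25.4% of all protein-coding genes had a region of either direction, 17.8% a decreased and 10.7% an increased one. Of the genes named here, Pax7 lies on chromosome 4, where 7.53% of regions were increased. The transcription factor gene En1, which patterns the ventral limb, had 4 increased regions, 1 of them 5490 bp wide (chr1:120602763-120608252, centre 3089 bp from its start) and another 517 bp from it. Lbx1, a gene of migrating limb muscle precursors, had 2 increased regions, at 3868 and 5830 bp. Prrx1, of limb mesenchyme, had 1 increased region at 14073 bp, and Tbx18 had 1 at 248655 bp. Decreased regions were nearest to Pax7 (8), Tbx15 (3), Pax3, Tbx4 and Prrx2 (1 each). The region of Tbx4, a hindlimb gene, lay 123526 bp from an internal start, and the hindlimb gene Pitx1 and the forelimb gene Tbx5 had none.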
